A study of Homo sapiens with 6 samples.

Results

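The proteasome genes of human stem cell-derived cardiomyocytes were examined in this series. Members were all genes in the series table whose symbol is PSMA, PSMB, PSMC, PSMD, PSME, PSMF or PSMG followed by a number, which gave 47 of 21134 genes. The symbol rule used no measured value. The cells were hiPSC-CMs of the line H9, which is known as a human embryonic stem cell line although the labels call the cells induced pluripotent. The control group received neither alcohol nor losartan, the alcohol group received 100 mM alcohol for 24 h, and the co-treated group received 100 mM alcohol with 1 μM losartan, a blocker of the angiotensin II type 1 receptor, for 24 h. A figure caption of the paper names vehicle as the comparison for alcohol. RNA was sequenced in 2 libraries per group, 6 in all. All 6 libraries came from 1 cell line, there was no group given losartan alone, and the labels do not say whether the 2 repeats of a group were separate cultures or differentiations, so the spread between them may be technical.

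The 26S proteasome is the protease that degrades proteins tagged with ubiquitin, and it consists of a barrel-shaped core and a regulatory cap. In the core, rings of alpha subunits form the gate and rings of beta subunits hold the active sites, which reside in PSMB5, PSMB6 and PSMB7. Under interferon-gamma they are replaced by PSMB8, PSMB9 and PSMB10 to give the immunoproteasome, the form common in immune cells. The cap has a base, in which the PSMC ATPases unfold the substrate, and a lid, in which PSMD14 removes the ubiquitin chain. In heart muscle the system is known for turnover of sarcomere proteins and for removal of damaged proteins under stress.

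Levels are given as deposited FPKM, which counts fragments scaled by transcript length and library total, and differences as log2 fold changes of the expected counts. Each library summed to between 4898287 and 5051448 expected counts, and 3 counts, taken as the floor, were 0.594 to 0.612 CPM. The cells expressed their defining marker TNNT2, cardiac troponin T, at 3194 to 3728 FPKM. Of the blood and immune list, LYZ had 22.64 to 30.23 FPKM, CD74 9.02 to 16.8, PTPRC 0.98 to 2.08 and CD14 0 to 0.27, and the list summed to 34.7 to 45.71 FPKM, while CD3E and HLA-DRA were not analysed here. The pluripotency list summed to 11.43 to 18.88 FPKM and overlapped between the controls and the other 4 libraries. The fibroblast list summed to 467.02 and 421.13 FPKM in the controls and to 467.54 to 518.14 in the others, which met at the boundary. The summed levels of 4 further lists separated the controls from the rest. The 10 cardiomyocyte genes summed to 28820 and 29590 FPKM in the controls and to 20207 to 27195 in the other libraries, and the 5 smooth muscle genes to 1985 and 1751 against 789 to 1507 FPKM. The endothelial list summed to 6.86 and 5.88 against 7.43 to 10.53 FPKM and the endoderm list to 39.17 and 38.08 against 49.82 to 52.83 FPKM, both higher outside the controls. By gene these lists were not uniform. In alcohol against control cells 5 of the 10 cardiomyocyte genes were higher and 5 lower, with a median log2 fold change of -0.015. MYL7 was the largest part of the cardiomyocyte sum, so the sum follows this gene more than any other. It averaged 15346, 10966.6 and 11043.5 FPKM in control, alcohol and co-treated cells, and NPPA 4211, 2664 and 2670. KDR, the largest part of the endothelial sum, had 4 and 3.7 FPKM in the controls against 5.18 to 7.7 in the others. The other endothelial genes overlapped between the controls and the rest. Of the endothelial genes tested 2 were higher and 2 lower under alcohol, and of the endoderm genes 2 were higher and 1 lower. All 5 smooth muscle genes had a log2 fold change below 0 under alcohol, but CNN1 was highest in the first alcohol library at 421.7 FPKM. MYOCD had 58.48 and 62 FPKM in the controls against 56.16 to 66.67. Of all marker genes 1, ACTA2 of smooth muscle, had an edgeR adjusted p below 0.05, in co-treated against control cells. In bulk RNA, fewer cells of a type and less RNA per cell cannot be told apart.

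The genes of the 26S particle were among the more highly expressed genes, and their levels lay close together. The 31 genes comprised 7 of the alpha ring, 7 of the constitutive beta ring, 6 base ATPases, 3 other base subunits and 8 lid subunits. Their median was 58.97 FPKM over the 6 libraries, and 25 of the 31 lay within 2-fold of it. The highest, PSMB4, a beta-ring subunit with no active site, was 13.37 times the lowest, PSMD12, a scaffold subunit of the lid. Over the 44 members with enough counts to be tested the median was 54.75 FPKM, against 8.2 FPKM for all 14926 genes tested, and 92.36% of the genes tested lay below the median member. FPKM is scaled by length, so these levels can be set against each other only as far as the transcript lengths used are right. In the first control library PSMB2 had 446.4 counts at 18.98 FPKM, and PSMB6 had 434 counts at 101.5 FPKM.

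**Figure D1:**
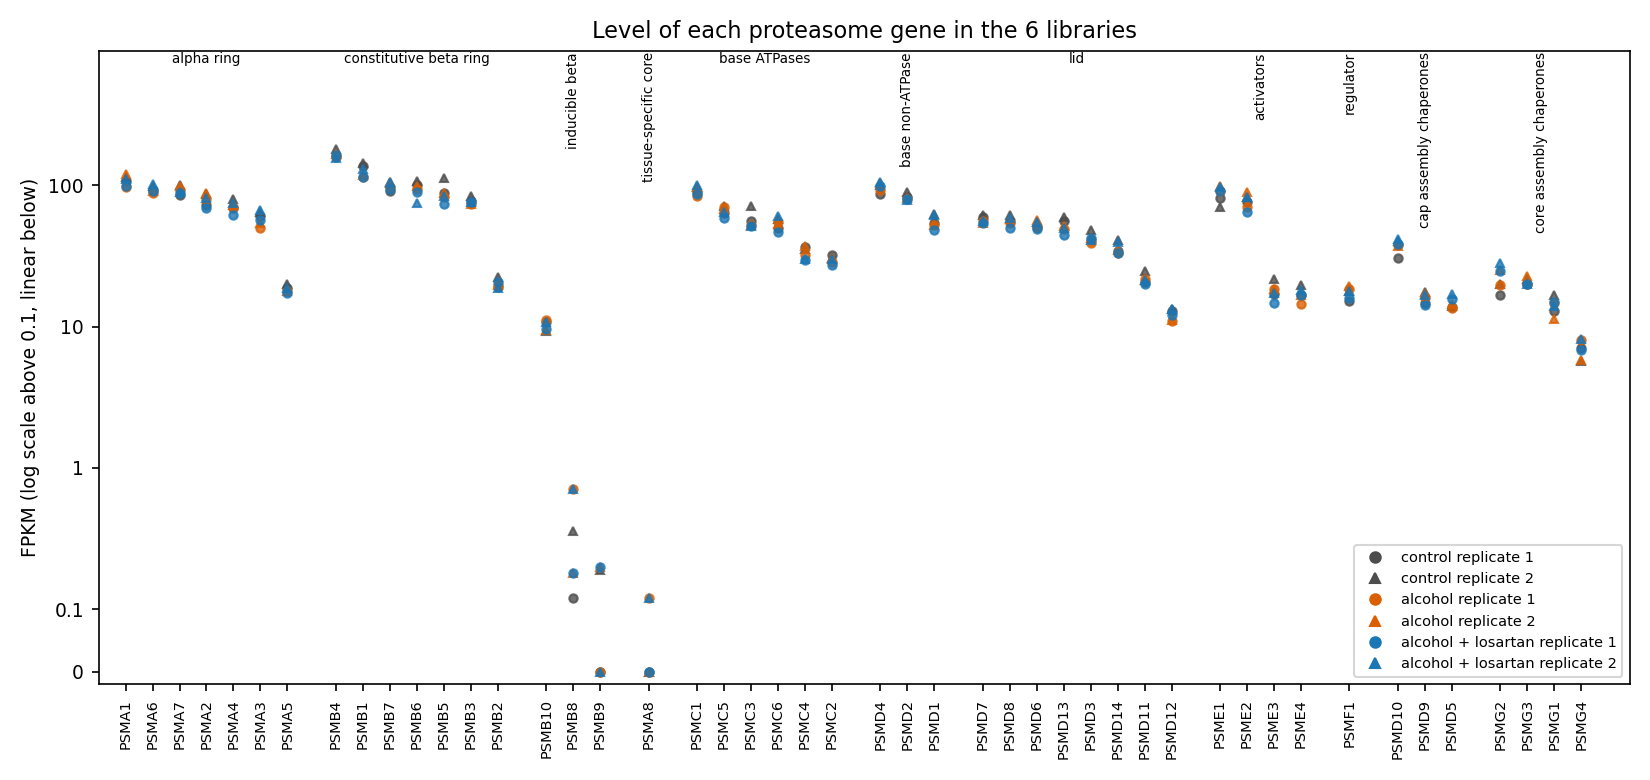
Each column is 1 of the 47 genes, ordered by class and by mean level. The vertical axis gives FPKM on a log scale above 0.1 and a linear scale below it, circles and triangles are replicates 1 and 2, and colours are the groups. Of the 31 genes of the 26S particle 25 lie within 2-fold of their median of 58.97 FPKM, while PSMB8, PSMB9 and PSMA8 lie below 1 FPKM in every library.

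In the alpha ring, which gates the entry of substrates, PSMA1 was highest and PSMA5 lowest. PSMA1 had 108.3 and 115.5 FPKM in control, 97.45 and 121.2 in alcohol and 99.75 and 110.5 in co-treated cells. PSMA5 had 18.74 and 19.99 FPKM in control, 17.83 and 17.84 in alcohol and 17.41 and 18.76 in co-treated cells. These levels did not overlap. The ranges of PSMA6, at 89.05 to 103.3 FPKM, and PSMA7, at 86.1 to 100.4 FPKM, which came next to PSMA1 in mean level, overlapped with each other.

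In the constitutive beta ring the highest and lowest genes were PSMB4 and PSMB2, and neither carries an active site. PSMB4 had 158.5 and 180.5 FPKM in control, 162.7 and 167.8 in alcohol and 165.3 and 155.8 in co-treated cells. PSMB2 had 18.98 and 22.65 FPKM in control, 19.81 and 19.81 in alcohol and 20.65 and 18.69 in co-treated cells. The 3 groups overlapped for PSMB2, and PSMB4 was between 155.8 and 180.5 FPKM throughout.

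In the base the ATPase PSMC1 led with 89.52 and 97.11 FPKM in control, 84.62 and 97.8 in alcohol and 86.5 and 101.6 in co-treated cells, and PSMC2 was the lowest ATPase with 27.29 to 32.2 FPKM. RefSeq holds 13 pseudogenes of PSMC1, none of them in the series table, and reads shared with them would be uncertain. Of the other base subunits PSMD4, a ubiquitin receptor, was highest with 87.71 and 100.3 FPKM in control, 92.27 and 104.6 in alcohol and 98.86 and 105.6 in co-treated cells. PSMD1, the large scaffold of the base, was the lowest of them with 54.56 and 62.97, 52.73 and 52.54, and 48.78 and 61.74 FPKM in the same order. The groups overlapped for PSMC1 and PSMD4, while for PSMD1 both alcohol libraries lay below both controls.

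In the lid PSMD7, the partner of the deubiquitinase PSMD14, had 59.76 and 61.96 FPKM in control, 56.22 and 54.15 in alcohol and 54.09 and 55.79 in co-treated cells. PSMD12 had 12.97 and 13.44 FPKM in control, 10.98 and 11.19 in alcohol and 12.08 and 13.44 in co-treated cells. Both genes were highest in the controls by their group means, and PSMD12 was lowest in alcohol cells.

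The genes that help to build or regulate the particle were mostly lower than the particle itself. Among the chaperones of core assembly PSMG2 was highest at 16.75 to 28.18 FPKM and PSMG4 lowest at 5.68 to 8.17 FPKM. Among those of cap assembly PSMD10, also known as gankyrin, had 30.72 and 40.36 FPKM in control, 38.06 and 37.33 in alcohol and 38.64 and 41.98 in co-treated cells, and PSMD5 had 13.62 to 17.08 FPKM. PSMF1, an inhibitor of the core, had 15.29 and 17.95 FPKM in control, 18.48 and 19.37 in alcohol and 15.99 and 17.93 in co-treated cells. Its alcohol libraries were the 2 highest. Among the activators that cap the core in place of the base and lid, PSME1 was highest at 70.27 to 98.73 FPKM and PSME4 lowest with 16.85 and 19.87 FPKM in control, 14.56 and 16.8 in alcohol and 16.9 and 18.21 in co-treated cells.

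The members took 0.5408% to 0.6059% of the summed FPKM of a library. They varied little between libraries: the median SD of log2 CPM over the 6 libraries was 0.13 for the 44 members and 0.21 for all genes tested, and 41 of the 44 had an SD below the median of all genes. The widest range belonged to PSMG2, at 0.69 on the log2 scale. The members were also more abundant than the median gene, and the part of depth in this difference was not tested.

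The active-site subunits of the immunoproteasome were nearly absent, with the exception of PSMB10. PSMB8, the counterpart of PSMB5, had 0.12 and 0.36 FPKM in control, 0.71 and 0.18 in alcohol and 0.18 and 0.71 in co-treated cells, which corresponded to 1, 2, 4, 1, 1 and 5 expected counts in that order. PSMB9, the counterpart of PSMB6, was listed at 0 in 3 libraries and at 0.19 to 0.2 FPKM, 1 count each, in the other 3. Neither gene passed the filter on low counts and neither was tested. The exact 95% Poisson interval of 1 count of PSMB8 ran from 0.0253 to 5.57 counts and that of 5 counts from 1.62 to 11.7, so the libraries' intervals overlapped and no difference was detectable at this depth. In the 3 libraries with 0 counts of PSMB9 the floor of 3 counts corresponds to 0.6 FPKM, and PSMB6 was 125-fold or more above that floor in each. The exact 95% Poisson interval of 0 counts reached 3.69 counts, somewhat above the floor. These intervals and floors cover counting error only.

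PSMB10, the counterpart of PSMB7, was detected in every library. It had 10.71 and 9.35 FPKM in control, 11.1 and 9.4 in alcohol and 9.61 and 10.76 in co-treated cells, on 46 to 56 counts. The groups overlapped, and the fitted log2 fold changes were -0.0052 for alcohol against control, -0.019 for co-treated against alcohol and -0.024 for co-treated against control, with an SE of 0.26 in each. As a share of the pair formed with its constitutive counterpart, PSMB10 made up 9.23% of FPKM on average, PSMB8 0.431% and PSMB9 0.1%. The share of PSMB10 was 9.32% ± 1.54 (SD, n = 2) in the controls, 9.16% ± 1.47 under alcohol and 9.21% ± 0.0374 under co-treatment. The shares of PSMB8 were 0.136% to 0.844% and rested on 14 counts over the 6 libraries.

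PSMA8, the testis form of PSMA7, had 1 count in 1 alcohol and 1 co-treated library and 0 in the other 4. PSMB11, the thymus subunit, was not analysed here. PSMB8 overlaps its antisense gene PSMB8-AS1, and the strand used in counting is not given in the sources used here.

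The stretches before the start sites of PSMB5, PSMB9 and PSME1 are shown to set a near-absent subunit of the immunoproteasome, PSMB9 at 0 to 0.2 FPKM, beside a constitutive subunit, PSMB5 at 73.78 to 113.5 FPKM, and an interferon-inducible activator, PSME1 at 70.27 to 98.73 FPKM. The ranges of PSMB5 and PSME1 overlapped. The stretches were read from RefSeq (GRCh38.p14) and are written 5′ to 3′ on the strand of the gene. Each is the longest run free of exons annotated in GENCODE. PSMB5 lies at chr14:23035231-23035470 on the minus strand, PSMB9 at chr6:32853979-32854147 on the plus strand and PSME1 at chr14:24135944-24136157 on the plus strand. Capitals mark matches to the letters CCAAT (the NF-Y box) in PSMB5, and to GGGCGG (the GC box) and TGACNNNGC (the antioxidant response element bound by NRF1 and NRF2) in PSMB9 and PSME1, on either strand. PSMB9 also has a CCAAT match near its start site, outside the stretch printed here.
PSMB5: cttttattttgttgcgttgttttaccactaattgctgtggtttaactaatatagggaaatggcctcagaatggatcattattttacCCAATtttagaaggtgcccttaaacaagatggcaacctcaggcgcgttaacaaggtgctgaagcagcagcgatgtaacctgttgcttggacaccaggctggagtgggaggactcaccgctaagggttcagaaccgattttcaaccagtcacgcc
PSMB9: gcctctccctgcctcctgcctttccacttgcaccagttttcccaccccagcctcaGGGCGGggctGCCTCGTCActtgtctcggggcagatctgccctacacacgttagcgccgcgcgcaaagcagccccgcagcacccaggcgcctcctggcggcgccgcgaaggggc
PSME1: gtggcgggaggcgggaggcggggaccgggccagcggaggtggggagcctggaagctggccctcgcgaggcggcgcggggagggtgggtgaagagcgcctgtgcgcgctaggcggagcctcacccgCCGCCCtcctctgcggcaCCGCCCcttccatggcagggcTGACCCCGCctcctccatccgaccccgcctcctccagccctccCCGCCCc

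Promoter windows of 250 bases before to 50 bases after the start were found for 41 of the 47 members. TGACNNNGC was present in 13 of them (31.7%), against 13.6% of all 27305 promoters of the same length. Of the 26 windows that belong to genes of the 26S particle, 5 held it. GGGCGG was present in 28 (68.3% against 44.6%) and CCAAT in 18 (43.9% against 35.7%). The interferon-stimulated response element, searched as TTTC, any 2 bases and TTTC, was present in 6 (14.6% against 3.65%), namely PSME1, PSME2, PSMB10, PSMA4, PSMB4 and PSMG4, and in PSME1 it lies outside the stretch printed above. The windows of PSMB8 and PSMB9 did not hold these letters, which says nothing of sequence elsewhere. All motifs were searched on both strands, GGGCGG and TGACNNNGC matches may overlap, and a match is a description of letters and not of binding.

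The first comparison asked how alcohol alone altered the level of these genes. By edgeR's quasi-likelihood test with Benjamini-Hochberg adjustment over all genes tested, 0 of the 44 members had an adjusted p below 0.05 in alcohol against control cells, beside 10 of all 14926 genes (0.067%). DESeq2 and limma also called 0 members. At an unadjusted p below 0.05 there were 6 members, 13.6% against 11% of all genes. Of these 1 was higher (2.27% against 5.27%) and 5 were lower (11.4% against 5.78%). The point estimates leaned lower: 34 of 44 (77.3%) had a log2 fold change below 0, against 50.6% of all genes, and the median was -0.099 against -0.0033 for all genes. On the log2 FPKM scale 27 of the 44 were lower. Within the 26S particle 26 of 31 genes were lower with a median of -0.13, including all 8 lid genes. On TMM-scaled CPM both alcohol libraries lay below both controls for 20 members (45.5%), against 21.8% of all genes, and above both for 2, PSME1 and PSMF1 (4.55% against 22%).

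The most negative value was that of PSMC3, a base ATPase. It had 55.8 and 72.04 FPKM in control and 52.11 and 52.16 in alcohol cells, so the groups did not overlap, but the controls lay further apart than the difference between groups. The log2 fold change was -0.33 (SE 0.13, edgeR adjusted p = 0.38, lower in 2 of 2 alcohol libraries).

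PSMB1, a beta-ring subunit, had 136.8 and 144.6 FPKM in control and 114.7 and 118.4 in alcohol cells. Both alcohol libraries lay below both controls, with a log2 fold change of -0.31 (SE 0.12, edgeR adjusted p = 0.347). PSMA3, an alpha-ring subunit that overlaps the antisense gene PSMA3-AS1, had 60.58 and 64.96 FPKM in control and 50.02 and 54.61 in alcohol cells. Its groups did not overlap either, and its log2 fold change was -0.30 (SE 0.14, edgeR adjusted p = 0.447).

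PSME1, the alpha subunit of the PA28 activator, which opens the core and is known for peptide production for MHC class I, had the most positive value. It had 81.38 and 70.27 FPKM in control and 91.27 and 98.73 in alcohol cells. Both alcohol libraries lay above both controls, with a log2 fold change of 0.28 (SE 0.13, edgeR adjusted p = 0.429). Its partner PSME2 had 76.18 and 82.83 FPKM in control and 70.29 and 90.64 in alcohol cells, which overlapped, with a log2 fold change of -0.025 (SE 0.16, edgeR adjusted p = 0.972).

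PSME1 and PSME2 are neighbours on chromosome 14, at chr14:24136194-24138962 on the plus strand and chr14:24143365-24146610 on the minus strand. Their proteins assemble together, and the ratio of PSME1 to PSME2 in FPKM averaged 0.958 ± 0.155 (SD, n = 2) in the controls, 1.19 ± 0.148 under alcohol and 1.31 ± 0.167 under co-treatment. The ratio of the first control, 1.07, lay just under that of the second alcohol library, 1.09, so the groups were separated by less than the spread between replicates. RefSeq holds 6 pseudogenes of PSME2, none of them in the series table, and reads that they share with the gene would be uncertain.

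Of the other core assembly genes, PSMG2 had 16.75 and 20.17 FPKM in control and 19.58 and 25.08 in alcohol cells, with a log2 fold change of 0.23 (SE 0.19, edgeR adjusted p = 0.71). PSMG4 had 7.09 and 5.68 FPKM in control and 8.02 and 5.83 in alcohol cells on 22 to 31 counts, with a log2 fold change of 0.15 (SE 0.36, edgeR adjusted p = 0.921). Both groups of values overlapped for each gene.

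Of the 3 active-site subunits, PSMB5, which cleaves after hydrophobic residues, had 87.9 and 113.5 FPKM in control and 83.44 and 88.11 in alcohol cells. The first control and the second alcohol library were level, so the groups overlapped slightly in FPKM, and the log2 fold change was -0.28 (SE 0.13, edgeR adjusted p = 0.472). PSMB6, which cleaves after acidic residues, had 101.5 and 107 FPKM in control and 94.99 and 99.55 in alcohol cells, with a log2 fold change of -0.14 (SE 0.12, edgeR adjusted p = 0.744). PSMB7, which cleaves after basic residues, had 92.12 and 104.2 FPKM in control and 97.73 and 106.3 in alcohol cells, with a log2 fold change of 0.016 (SE 0.12, edgeR adjusted p = 0.977).

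For 39 of the 44 members the 95% interval of the fold change in alcohol against control cells lay within 1.5-fold in either direction, and for all 44 it lay within 2-fold. The lean to lower values rested on the second control library: without it the median was -0.0097 and 25 of 44 members were lower, and 0 members had an unadjusted p below 0.05, as was also so without either alcohol library. In both alcohol libraries the summed smooth muscle markers were also lower (1507 and 789 against 1985 and 1751 FPKM, 0 of 5 genes called). So were the summed cardiomyocyte markers (27195 and 20207 against 28820 and 29590 FPKM, 0 of 10 called), and the summed endothelial and endoderm markers were higher. MYL7 was the largest part of the cardiomyocyte sum and KDR of the endothelial sum. By gene, 5 cardiomyocyte markers were higher and 5 lower, and 2 of the 4 endothelial markers tested were lower. The part of these markers in the result was not tested.

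**Figure D2:**
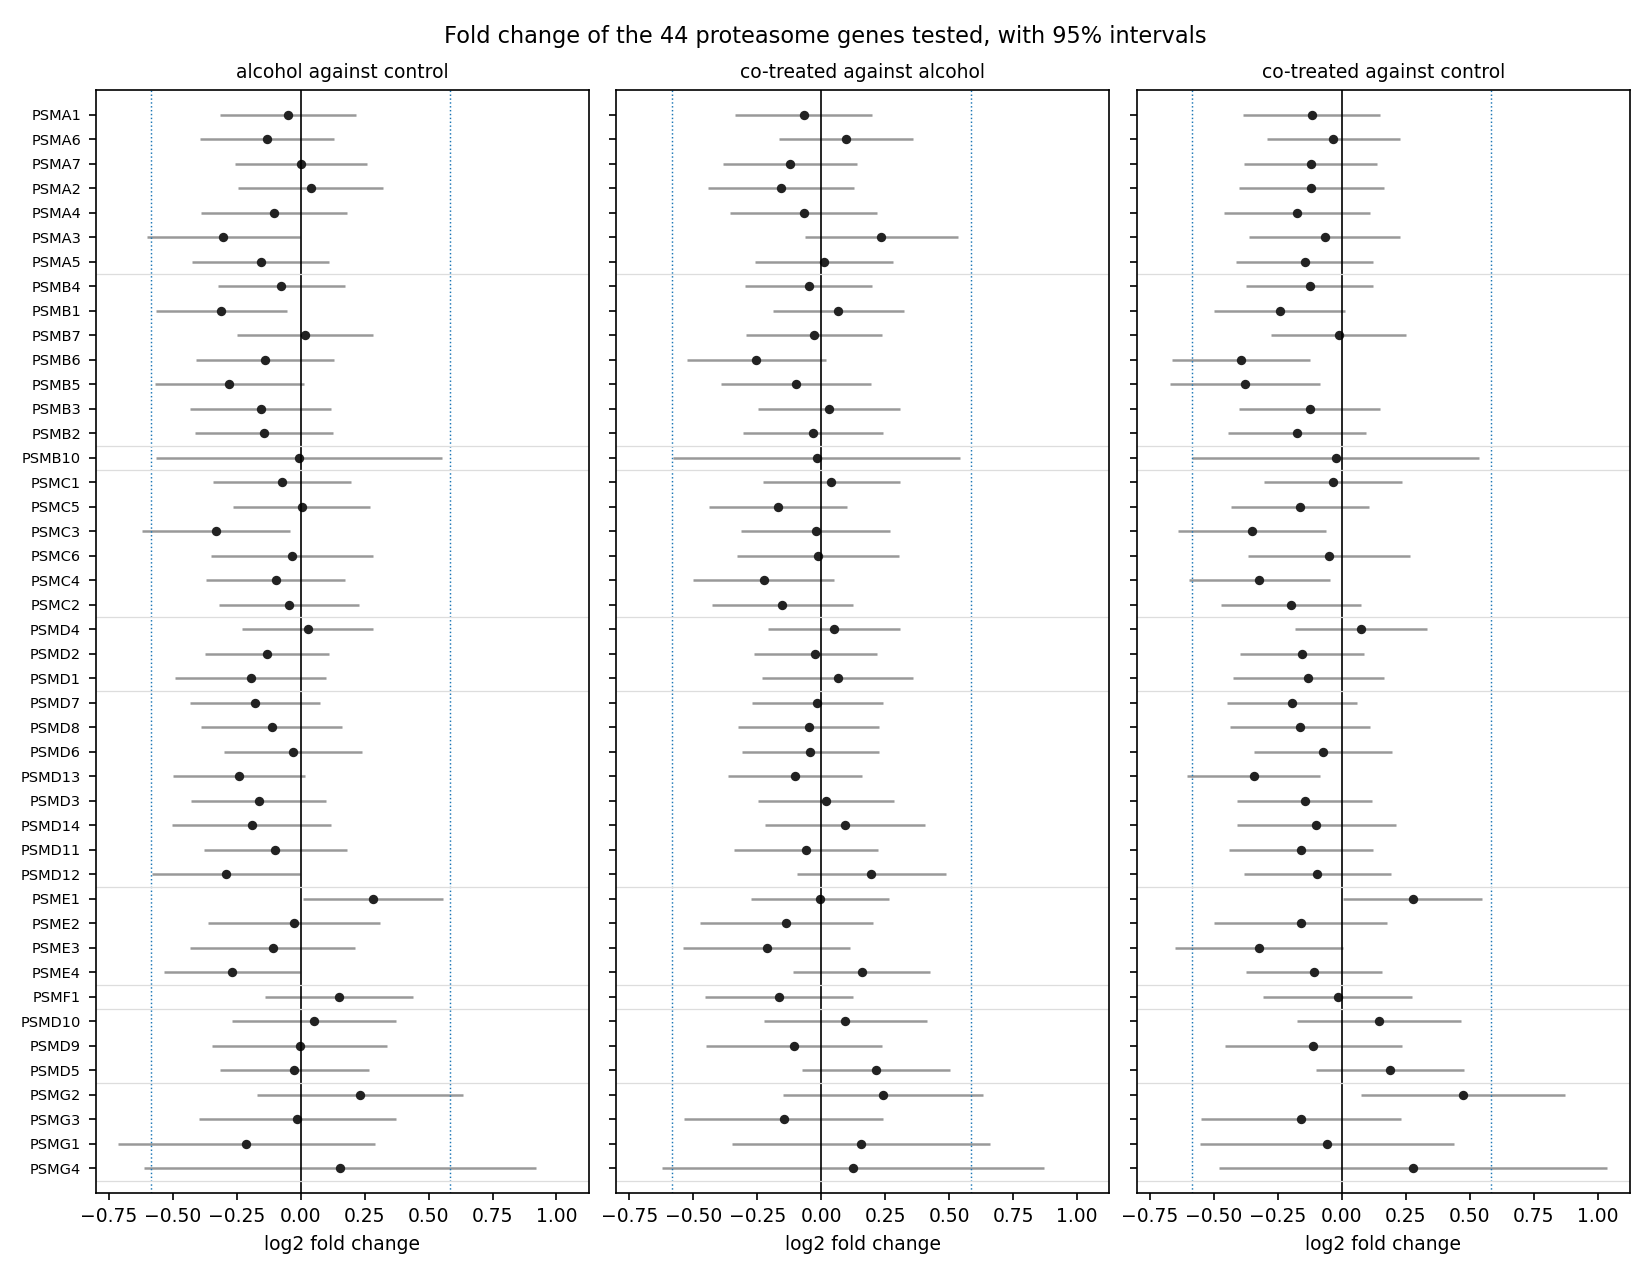
Points are the log2 fold changes of the 44 genes tested in each comparison and bars are their 95% intervals from the edgeR fit, with genes ordered by class and dotted lines at 1.5-fold. Most points lie to the left of 0 in alcohol against control and in co-treated against control cells, and all lie between -0.39 and 0.47.

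The second comparison asked what losartan added to alcohol. By edgeR's quasi-likelihood test 0 of the 44 members had an adjusted p below 0.05 in co-treated against alcohol cells, beside 2 of all genes (0.0134%). No member had an unadjusted p below 0.05, against 5.55% of all genes, and DESeq2 and limma called 0 members as well. Log2 fold changes below 0 were found for 27 of 44 members (61.4%, against 49.7% of all genes), with a median of -0.022. On TMM-scaled CPM both co-treated libraries lay below both alcohol libraries for 12 members (27.3% against 16.2%) and above them for 4 (9.09% against 17.4%).

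PSMB6 had the most negative value. It had 94.99 and 99.55 FPKM in alcohol and 89.24 and 74.77 in co-treated cells, which did not overlap, although the co-treated libraries differed from each other by nearly as much as the group means did. The log2 fold change was -0.25 (SE 0.13, edgeR adjusted p = 0.9). The base ATPase PSMC4 had 32.27 and 37.22 FPKM in alcohol and 29.65 and 29.93 in co-treated cells, which did not overlap either, with a log2 fold change of -0.22 (SE 0.13, edgeR adjusted p = 0.915). PSME3, the nuclear activator PA28 gamma, had 18.64 and 18.5 FPKM in alcohol and 14.76 and 17.33 in co-treated cells, and its log2 fold change was -0.21 (SE 0.15, edgeR adjusted p = 0.923).

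The most positive values belonged to PSMG2, PSMA3 and PSMD5. PSMG2, which overlaps SPIRE1 and CEP76 on chromosome 18, had 19.58 and 25.08 FPKM in alcohol and 24.74 and 28.18 in co-treated cells, and its groups overlapped (log2 fold change 0.24, SE 0.18, edgeR adjusted p = 0.928). PSMA3 had 50.02 and 54.61 FPKM in alcohol and 56.73 and 66.89 in co-treated cells, which spanned its control levels (log2 fold change 0.24, SE 0.14, edgeR adjusted p = 0.915). PSMD5, a chaperone of the base, had 13.62 and 14.57 FPKM in alcohol and 15.79 and 17.08 in co-treated cells, with both co-treated libraries higher (log2 fold change 0.21, SE 0.13, edgeR adjusted p = 0.915).

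Other active-site subunits and the PA28 pair differed less in this comparison. PSMB5 had 83.44 and 88.11 FPKM in alcohol and 73.78 and 83.61 in co-treated cells, a log2 fold change of -0.10 (SE 0.14, edgeR adjusted p = 0.962), and PSMB7 had a log2 fold change of -0.028 (SE 0.12, edgeR adjusted p = 0.987) with 94.42 and 106.4 FPKM in co-treated cells. PSME1 had 92.16 and 98.25 FPKM in co-treated cells, against 91.27 and 98.73 in alcohol cells. PSME2 had 64.39 and 82.24 FPKM in co-treated cells and a log2 fold change of -0.14 (SE 0.16, edgeR adjusted p = 0.956).

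The 95% interval lay within 1.5-fold for 41 of the 44 members and within 2-fold for all 44. The direction of the median depended on single libraries: it was 0.049, with 29 of 44 members higher, without the first co-treated library, -0.099 without the second, -0.047 without the second alcohol library, and -0.035 without either control library.

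The third comparison set co-treated against control cells, and it shares the control libraries with the first and the co-treated libraries with the second. By edgeR's quasi-likelihood test 0 of the 44 members had an adjusted p below 0.05, beside 54 of all genes (0.362%). DESeq2 and limma called 0 members. At an unadjusted p below 0.05 there were 7 members, 15.9% against 12.6% of all genes. Of these 2 were higher (4.55% against 6.26%) and 5 were lower (11.4% against 6.37%). Log2 fold changes below 0 were found for 38 of 44 members (86.4%, against 50.2% of all genes) with a median of -0.12, and for 30 of the 31 genes of the 26S particle with a median of -0.15 (PSMD4 was the exception). On the log2 FPKM scale 33 of the 44 were lower. On TMM-scaled CPM both co-treated libraries lay below both controls for 17 members (38.6% against 21.7% of all genes) and above them for 4 (9.09% against 21.6%).

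Both PSMB6 and PSMB5 lay at the lower end. PSMB6 had 101.5 and 107 FPKM in control and 89.24 and 74.77 in co-treated cells, with no overlap. Its log2 fold change of -0.39 (SE 0.13, edgeR adjusted p = 0.206) was 0.761-fold with a 95% interval of 0.631 to 0.919, and it had the smallest adjusted p of all members in any comparison. PSMB5 had 87.9 and 113.5 FPKM in control and 73.78 and 83.61 in co-treated cells, also with no overlap. Its log2 fold change was -0.38 (SE 0.14, edgeR adjusted p = 0.263), or 0.769-fold with a 95% interval of 0.629 to 0.942. PSMB7, the other active-site subunit, had a log2 fold change of -0.013 (SE 0.12, edgeR adjusted p = 0.978), and its groups overlapped.

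PSMC3 had 51.46 and 51.87 FPKM in co-treated cells, both below its controls of 55.8 and 72.04 (log2 fold change -0.35, SE 0.13, edgeR adjusted p = 0.29). The lid subunit PSMD13 had 56.28 and 59.73 FPKM in control and 44.61 and 49.73 in co-treated cells (log2 fold change -0.34), and PSMC4 had 36.53 and 35.6 in control and 29.65 and 29.93 in co-treated cells (log2 fold change -0.32). These 2 completed the 5 members that were lower at an unadjusted p below 0.05.

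PSMG2 was at the upper end, with 16.75 and 20.17 FPKM in control and 24.74 and 28.18 in co-treated cells and no overlap. Its log2 fold change was 0.47 (SE 0.18, edgeR adjusted p = 0.304), or 1.389-fold with a 95% interval of 1.054 to 1.831. PSME1 had a log2 fold change of 0.28 (SE 0.13, edgeR adjusted p = 0.388), with both co-treated libraries above both controls. PSMG4 had 6.81 and 8.17 FPKM in co-treated cells, within or near its control values of 7.09 and 5.68, and a log2 fold change of 0.28 with a wide SE of 0.35 (edgeR adjusted p = 0.8). PSME2 had a log2 fold change of -0.16 (SE 0.16, edgeR adjusted p = 0.732).

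The 95% interval lay within 1.5-fold for 36 of the 44 members and within 2-fold for 43, with PSMG4 the exception. The median was -0.037 without the first co-treated library (25 of 44 lower) and -0.041 without the second control (30 of 44 lower), and it was -0.20 without the first control or the second co-treated library. In both co-treated libraries the summed smooth muscle markers were lower as well (1049 and 1095 against 1985 and 1751 FPKM, 1 of 5 genes called). So were the summed cardiomyocyte markers (23138 and 25567 against 28820 and 29590 FPKM, 0 of 10 called), and the summed endothelial and endoderm markers were higher. Again MYL7 was the largest part of the cardiomyocyte sum and KDR of the endothelial sum. By gene, 4 cardiomyocyte markers were higher and 6 lower, and 1 of the 4 endothelial markers tested was lower. The part of these markers in the result was not tested.

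Summed over its genes, the constitutive beta ring had 715.1 ± 59.2 FPKM (SD, n = 2) in the controls, 661.2 ± 18.9 under alcohol and 640.5 ± 7.85 under co-treatment. The alpha ring summed to 538.2 ± 40.5, 521.5 ± 34.8 and 515.3 ± 43.8 FPKM, and the whole 26S particle to 2188 ± 170, 2069 ± 87.2 and 2033 ± 112 FPKM. The differences from control were smaller than the SD of the controls for the alpha ring and the whole particle, and larger than it for the beta ring of co-treated cells. They were also larger for the lid in both groups, which summed to 349.6 ± 24.5, 323.4 ± 11.9 and 320.1 ± 20.6 FPKM. For the base ATPases this held under co-treatment only, with 345.9 ± 25.6, 331 ± 11.4 and 319.6 ± 27.6 FPKM. Core assembly chaperones summed to 60.66 ± 5.52, 63.81 ± 2.19 and 68.56 ± 2.7 FPKM in the same order of groups. Activators summed to 193.1 ± 2.475, 209.7 ± 21.15 and 202.1 ± 19.67 FPKM. These differences from control also exceeded the SD of the controls, except for the core assembly chaperones under alcohol. The direction of the activators depended on the unit: in summed CPM, where the long PSME4 counts for more, their log2 ratio to control was -0.051 in alcohol and -0.060 in co-treated cells.

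**Figure D3:**
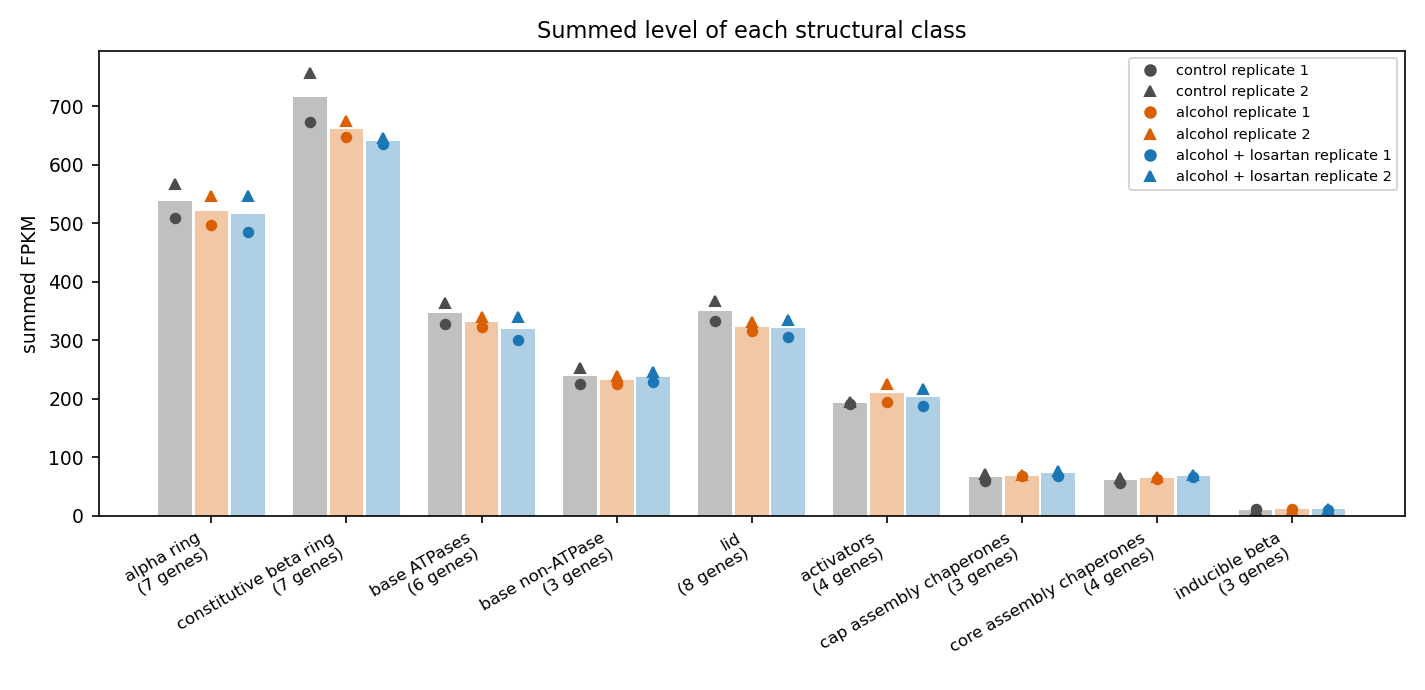
Bars are the mean summed FPKM of each class in control, alcohol and co-treated cells, from 0, and points are the 2 libraries of a group. In the constitutive beta ring the bars are 715.1, 661.2 and 640.5 FPKM, and the first control at 673.2 lies level with the second alcohol library at 674.5.

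The members were high or low together in single libraries. The second control library held the highest TMM-scaled CPM of the 6 for 26 of the 44 members, against 17.39% of all genes, and the first co-treated library the lowest for 24, against 14.04% of all genes. Of the remaining libraries the second co-treated one was highest for 10 members, against 20.08% of all genes. No other was highest for more than 4, where the shares of all genes were 12.56% to 17.75%. The median log2 CPM of the members was 6.44 and 6.57 in the controls, 6.43 and 6.37 in alcohol and 6.24 and 6.43 in co-treated cells, while the median of all genes ranged from 4.65 to 4.71. The first control and the second co-treated library differed in this median by less than the replicates of either group.

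**Figure D4:**
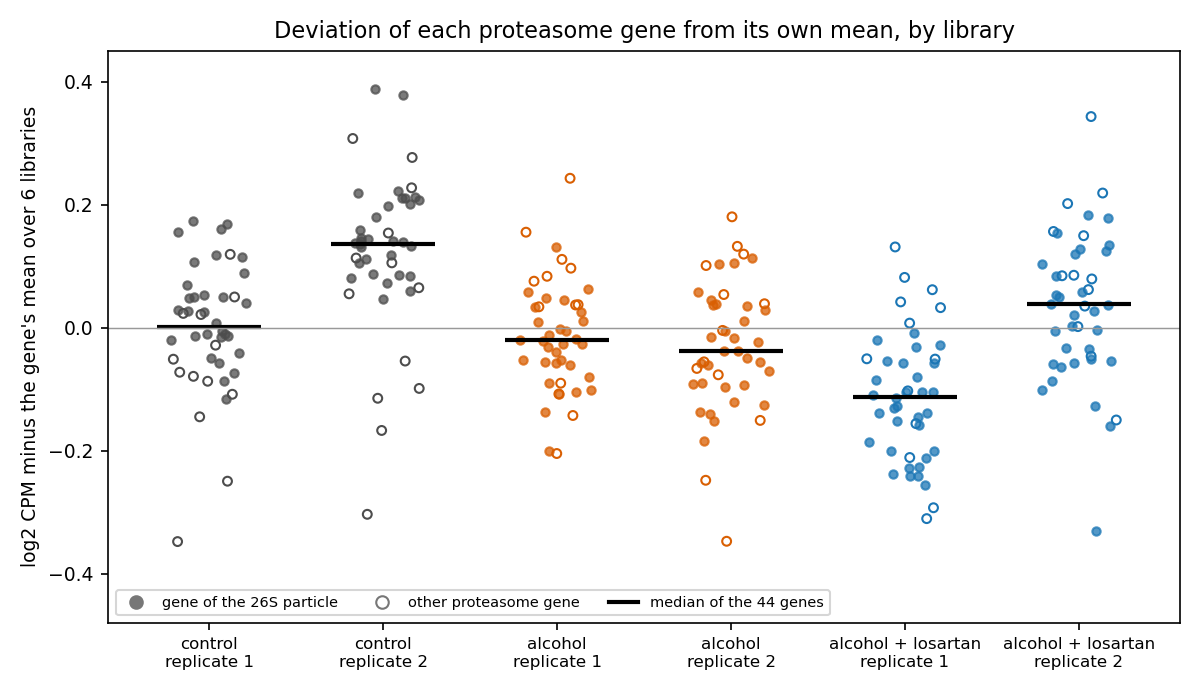
Each point is 1 of the 44 genes, plotted as its log2 CPM minus its own mean over the 6 libraries, filled for genes of the 26S particle and open for the others, with a bar at the median. The second control lies above 0 for nearly all genes of the particle and the first co-treated library lies below 0, while the other 4 libraries are centred near 0.

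Other genes of the ubiquitin-proteasome pathway gave 0 calls by edgeR in any comparison, against 0.067%, 0.0134% and 0.362% of all genes. Among the 13 factors that bind or assist the particle, 2, 1 and 1 had an unadjusted p below 0.05 in the 3 comparisons in the order above, where the shares of all genes were 11%, 5.55% and 12.6%, and the medians of the log2 fold change were -0.013, -0.059 and -0.091. ADRM1, the ubiquitin receptor of the base also known as RPN13, had 41.01 and 38.84 FPKM in control, 37.8 and 35.89 in alcohol and 30.99 and 28.71 in co-treated cells. The 3 groups did not overlap, and the log2 fold change of co-treated against control cells was -0.47 (SE 0.14, edgeR adjusted p = 0.168). USP14, a deubiquitinase of the cap, had a log2 fold change of -0.32 (edgeR adjusted p = 0.35) in alcohol against control cells, and ZFAND5, which binds the particle and is induced in muscle atrophy, 0.27 (edgeR adjusted p = 0.423). UCHL5, the deubiquitinase that ADRM1 recruits, had 0.34 (edgeR adjusted p = 0.9) in co-treated against alcohol cells.

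Among 8 genes of the transcriptional control of proteasome genes, 1, 2 and 3 had an unadjusted p below 0.05 (all genes 11%, 5.55% and 12.6%). NFE2L1, which encodes NRF1, the factor known for restoring proteasome genes after inhibition, had 75.46 and 78.55 FPKM in control, 90.12 and 115.8 in alcohol and 99.99 and 97.46 in co-treated cells. All 4 libraries given alcohol lay above both controls, with a log2 fold change of 0.38 (SE 0.13, edgeR adjusted p = 0.28) in alcohol and 0.31 (SE 0.13, edgeR adjusted p = 0.325) in co-treated against control cells. NGLY1, the glycanase that processes NRF1, had 15.36 and 15.74 FPKM in control, 18.88 and 16.61 in alcohol and 21.46 and 23.6 in co-treated cells, and the log2 fold change of co-treated against control cells was 0.48 (SE 0.15, edgeR adjusted p = 0.178). MAFK, a small MAF partner of these factors, had 26.4 and 26.72 FPKM in control, 26.99 and 21.02 in alcohol and 20.5 and 15.54 in co-treated cells, a log2 fold change of -0.61 (SE 0.16, edgeR adjusted p = 0.129) against control.

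Among 10 ubiquitin ligases of muscle, 3, 1 and 0 had an unadjusted p below 0.05 (all genes 11%, 5.55% and 12.6%). FBXO40, a muscle F-box protein, had 3.88 and 4.31 FPKM in control, 5.51 and 9.98 in alcohol and 5.73 and 5.99 in co-treated cells, a log2 fold change of 0.88 (SE 0.22, edgeR adjusted p = 0.161) in alcohol against control cells. FBXO32, the atrophy ligase atrogin-1, had 8.41 and 9.01 FPKM in control, 10.35 and 16.24 in alcohol and 10.76 and 8.74 in co-treated cells, with log2 fold changes of 0.56 (SE 0.18, edgeR adjusted p = 0.25) in alcohol against control and -0.44 (SE 0.17, edgeR adjusted p = 0.857) in co-treated against alcohol cells. In both genes the second alcohol library stood far above the first. MDM2, the ligase of p53, had a log2 fold change of -0.45 (SE 0.16, edgeR adjusted p = 0.32) in alcohol against control cells, with overlap between the groups in FPKM.

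Among 14 genes of ubiquitin and its shuttling, 2, 0 and 1 had an unadjusted p below 0.05, against 11%, 5.55% and 12.6% of all genes. UBQLN4, a shuttle that brings ubiquitinated proteins to the particle, had 16.48 and 17.94 FPKM in control, 14.99 and 12.36 in alcohol and 14.03 and 11.95 in co-treated cells, a log2 fold change of -0.46 (SE 0.16, edgeR adjusted p = 0.229) in co-treated against control cells. UBA6, an activating enzyme of ubiquitin, had a log2 fold change of -0.35 (SE 0.15, edgeR adjusted p = 0.401) in alcohol against control cells.

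The 13 genes of antigen presentation and its interferon control, of which 12 were tested, gave levels beside which the immunoproteasome values can be read. TAP1, the peptide transporter gene next to PSMB9, had 0.73 to 1.33 FPKM and TAP2 had 0.28 to 0.88 FPKM, while B2M, the light chain of MHC class I, had 306 to 416.2 FPKM. Of the 12 tested, 1, 0 and 1 had an unadjusted p below 0.05, against 11%, 5.55% and 12.6% of all genes. TAPBP, a chaperone of peptide loading, had a log2 fold change of 0.28 (SE 0.12, edgeR adjusted p = 0.413) in alcohol against control cells, and ERAP1, which trims peptides, 0.38 (SE 0.16, edgeR adjusted p = 0.325) in co-treated against control cells.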

How the data were processed

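Total RNA of 6 libraries, 2 per group, was sequenced. The submitters' processing notes name HISAT2 2.0.4, Bowtie2 2.2.5, RSEM 1.2.12 and hg38. The authors deposited, per library, expected counts of genes (33.9% are not whole numbers) and FPKM values, a unit that is scaled by transcript length and library total and limits comparison across libraries to relative abundance. Groups were taken from the treatment label.

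Expected counts were rounded and tested with edgeR 4.0.16 in R 4.3.3 (TMM, filterByExpr, all 6 libraries in 1 quasi-likelihood fit, two-sided, Benjamini-Hochberg adjustment at 0.05 over 14926 genes). An SE is the log2 fold change over the square root of F, and intervals are 95%. The filter removed PSMB8, PSMB9 and PSMA8. Depth, at 4898287 to 5051448 counts, limits precision for genes with few counts. An exact permutation test of 2 against 2 cannot go below 0.333 and was not used. Alternatives were DESeq2 1.42.0, limma 3.58.1 on log2(FPKM + 1) and log2(FPKM + 0.1), RLE size factors, other filters, a replicate block and leaving out each library. Scripts were tested on simulated data.

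Values are given for members called in any comparison, the 3 highest and 3 lowest log2 fold changes per comparison, the inducible genes with their counterparts, and the highest and lowest gene of each class (by range for some, with fold changes in the plot of fold changes). From each pathway list up to 4 genes with the smallest p are named. Members and lists were chosen with earlier results of these data known. Promoters and gene positions are from RefSeq (GRCh38.p14), and the exons left out of the printed stretches are from GENCODE.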

Additional observations from a re-analysis of the deposited data

How the results depend on the processing

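With 2 libraries per group, each result about a single gene rests on 4 libraries. Of the values for single genes computed under alternatives, 404 kept their direction and side of the threshold and 30 changed direction, and no member was called under any alternative run.

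Over all genes tested, the number called in alcohol against control cells was 10 and became 68 with DESeq2, 0 with limma on log2(FPKM + 1), 2 on log2(FPKM + 0.1), 2 without the filter, 26 with at least 10 counts in every library, 3 with only the libraries compared, and 1 to 220 without 1 library. In co-treated against alcohol cells it was 2 and became 5 with DESeq2, 1 with limma on log2(FPKM + 1), 1 without the filter, 0 with at least 10 counts in every library, 4 with only the libraries compared, and 1 to 24 without 1 library. In co-treated against control cells it was 54 and became 113 with DESeq2, 2 and 3 with limma at the larger and smaller pseudocount, 15 without the filter, 158 with only the libraries compared, and 2 to 184 without 1 library. The cause was not tested.

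Replicate numbers are shared between groups. Over all genes the deviations of same-numbered libraries correlated at 0.114 (control and alcohol), -0.0162 (control and co-treated) and 0.0412 (alcohol and co-treated). A low correlation over all genes cannot show that same-numbered libraries were handled apart, and whether they share a batch was not tested. With the replicate block the counts over all genes were 48, 5 and 136, no member was called, and the smallest adjusted p of a member was 0.285, 0.792 and 0.167.

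Directions reversed for PSMB10, PSMB7, PSME1, PSME2 and PSMG4. In alcohol against control cells PSMB10 became 0.0271 and 0.0294 with limma at pseudocounts 1 and 0.1 and 0.00701 without the filter, and PSME2 became 0.00699 and 0.00696 with limma. In co-treated against alcohol cells PSME1 became 0.00344 and 0.00348. In co-treated against control cells PSMB10 became 0.021 and 0.0229 and PSMB7 0.0322 and 0.0325. Without 1 library the ranges in alcohol against control cells were -0.161 to 0.148 for PSMB10, -0.0439 to 0.106 for PSMB7, -0.176 to 0.123 for PSME2 and -0.121 to 0.397 for PSMG4. In co-treated against alcohol cells they were -0.171 to 0.138 for PSMB10, -0.134 to 0.0688 for PSMB7, -0.0687 to 0.0524 for PSME1 and -0.341 to 0.0426 for PSME2. In co-treated against control cells they were -0.131 to 0.0929 for PSMB10, -0.118 to 0.0856 for PSMB7 and -0.366 to 0.0183 for PSME2.

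The log2 ratio of the summed level to control without 1 library ranged from -0.195 to -0.026 in alcohol and from -0.241 to -0.0717 in co-treated cells for the constitutive beta ring, from -0.0169 to 0.169 and from 0.0867 to 0.273 for the core assembly chaperones, and from -0.0753 to 0.208 and from 0.0027 to 0.286 for the cap assembly chaperones, the lowest and highest values being those without the first and the second control library. With CPM in place of FPKM the activators became -0.0511 in alcohol and -0.0602 in co-treated cells.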
